A study of Mus musculus with 11 samples.

Results

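The matrix metalloproteinases (MMP), their tissue inhibitors (TIMP) and the ADAMTS proteases were followed in epididymal white adipose tissue (eWAT) of mice with and without an intact paternal copy of Mest. A gene was counted as a member when its symbol began with Mmp or Timp and a number, or with Adamts. This gave 39 of the 15453 genes measured, namely 16 MMP, 4 TIMP, 15 ADAMTS and 4 ADAMTS-like (ADAMTSL) genes. All 39 entered the tests, and 23 of them averaged 50 normalized tags or more in a genotype.

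MMPs are zinc proteases that are made as inactive proenzymes and cut collagens, elastin, proteoglycans and other proteins of the extracellular matrix. TIMPs bind the active site of MMPs and, in the case of TIMP3, also that of several ADAMTS and ADAM proteases. ADAMTS proteases trim procollagens or cut proteoglycans such as versican and aggrecan, whereas ADAMTSL proteins resemble them but lack the protease domain. In adipose tissue these proteins take part in the matrix remodelling that accompanies the growth of adipocytes, and MMP14 is known for its collagenolytic role there.

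The animals were male C57BL/6 mice aged 16 weeks, of which 6 were wildtype (WT) and 5 had inherited an inactivated Mest allele from the father (pKO). Mest is imprinted and almost exclusively expressed from the paternal copy, so a paternal deletion of exon 3 leaves only the maternal copy intact. The deletion was made in the germline with EIIa-cre and was present in every tissue, not in fat alone, and both genotypes came from crosses of WT females with heterozygous males and had eaten a high fat diet from 8 weeks of age. The study selected these mice from a larger cohort on the diet, by a rule not given in the sources used here. It described the pKO mice as less adipose than WT mice, so genotype and fat mass cannot be told apart in this comparison. RNA came from flash-frozen, powdered epididymal fat of each mouse and was read out by SAGE (serial analysis of gene expression), where a transcript yields a short tag next to its last NlaIII site.

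Values are given as normalized tags, which are tag counts divided by the size factor of the library. A transcript yields 1 tag whatever its length, so normalized tags are not scaled by transcript length. How fully the tags of each gene were cut and assigned was not tested. Orders, shares and ratios between genes below are therefore those of tags. Libraries held 9659740 to 14825727 tags, and 1 tag was worth 0.836 to 1.19 normalized tags. Mest itself stood at 25107 ± 2672 normalized tags in WT (SD, n = 6) against 1663 ± 566 in pKO mice (SD, n = 5). The ranges did not overlap, as the labels require, and the source of the Mest tags left in pKO mice was not tested. Adipocyte markers were abundant in every mouse, with Adipoq between 53365 and 88529 normalized tags. The epididymis markers Lcn5, Lcn8, Rnase9, Rnase10, Crisp1, Adam7 and Defb48 gave 2 measured genes of 7 and summed to at most 43.8 normalized tags in a mouse. The tags come from whole tissue, so fewer cells of a type and less RNA per cell cannot be told apart in any value below.

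The files name genes and not tags, so a likely tag of each member was read from its RefSeq-matched transcript in the GRCm38 genome (mm10). This tag was taken as 27 bases from the 3'-most NlaIII site that leaves room for a whole tag. The sequences below are those of the TIMPs, of the other members at an unadjusted p of at most 0.05, and of some members that are abundant or whose tag is less certain. Capitals mark the NlaIII site, and each sequence is written 5′ to 3′ on the strand of the gene.

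Timp1, chrX:20873112-20873138, plus strand, coding sequence: CATGgaaagcctctgtggatatgccca

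Timp2, chr11:118301211-118301237, minus strand, 3' UTR: CATGtgcgtgctggaatatgaagtctg

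Timp3, chr10:86349389-86349415, plus strand, 3' UTR: CATGttatttatgaattttatattccg

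Timp4, chr6:115242489-115242515, minus strand, 3' UTR: CATGtgaggagactgcggctgaagcct

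Mmp11, chr10:75923287-75923313, minus strand, 3' UTR: CATGtgtatacagtgtataaagacttt

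Mmp12, chr9:7360233-7360259, plus strand, 3' UTR: CATGgcttttagattattaattttagt

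Mmp14, chr14:54440616-54440642, plus strand, coding sequence: CATGggacgcccaagcgactgctttac

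Mmp15, chr8:95374970-95374996, plus strand, 3' UTR: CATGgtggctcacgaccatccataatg

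Mmp19, chr10:128800533-128800559, plus strand, 3' UTR: CATGcctttagtcccggtactggggag

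Adamts3, chr5:89677216-89677242, minus strand, 3' UTR: CATGgaaggaccggaagtgctggttca

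Adamts5, chr16:85856827-85856853, minus strand, 3' UTR: CATGaaaattgctggttcatttgctac

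In 35 of the 39 members the tag lay in the 3' UTR, and in 4 it lay in the coding sequence. The protein-coding transcripts of 16 members gave 1 tag, whereas those of 23 members gave several distinct tags. Among these, Mmp12 had 4, Mmp14 had 3, and Timp2, Timp3, Timp4, Mmp11 and Adamts3 had 2. The positions and matches given here cover only the tag of the transcript used. No member tag was found exactly in a transcript of another gene. Within 2 mismatches, 37 members had no match elsewhere, whereas the Mmp15 tag matched transcripts of 115 other genes and the Mmp19 tag those of 1 other gene, so tags of other genes could have been counted in these values. The last NlaIII site of Mmp11 lay 16 bases from the transcript end, too near for a whole tag within the transcript. The sequence shown comes from the site before it, and so need not be the tag that was counted for Mmp11. The last sites of Adamts17 and Mmp28, at 23 and 4 bases from the end, were also too near, and the same limit holds for these genes. Several members overlap a gene on the opposite strand. Among them are Timp1 with Syn1, Timp3 with Syn3, Timp4 with Syn2, Mmp11 with Chchd10, Mmp12 with Mmp1b and Mmp19 with Tmem198b. The strand rule of the authors' tag assignment is not given in the sources used here. On the same strand, Timp2 overlaps Cep295nl and Adamtsl1 overlaps Sh3gl2, where a strand rule could not separate the genes. The neighbouring genes Mmp13, Mmp12, Mmp3 and Mmp8 lie within 296 kb of chromosome 9, from 7272514 to 7568485.

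A small number of genes carried most of the family's tags. Mmp12, the macrophage elastase, was the most abundant member in WT mice at 5650 ± 2738 normalized tags (SD, n = 6). Next came Timp2, an inhibitor that also helps MMP14 to activate proMMP2, at 5001 ± 755, and the proteoglycanase Adamts5 at 4691 ± 346 (SD, n = 6 each). The WT ranges of these genes overlapped, from 1734 to 8245 for Mmp12, 3937 to 6170 for Timp2 and 4183 to 5163 for Adamts5, so their order was not separated beyond the spread between mice. Timp3, Adamts1 and Adamts2 followed, with WT means of 1593, 1426 and 1410, and completed the 6 members with a mean over 1000.

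At the other end, 7 members had means under 10 normalized tags in both genotypes. These were Adamts12, Adamts17, Mmp17, Mmp16, Adamts19, Adamts6 and Mmp25. In 4 of them at least 1 library held no tag, namely 4 libraries for Adamts6, 3 for Mmp25, 2 for Mmp16 and 1 for Adamts19. A count of 0 allows up to 3 tags, which is 2.51 to 3.56 normalized tags depending on the library, so the absence of these transcripts was not shown.

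**Figure D1:**
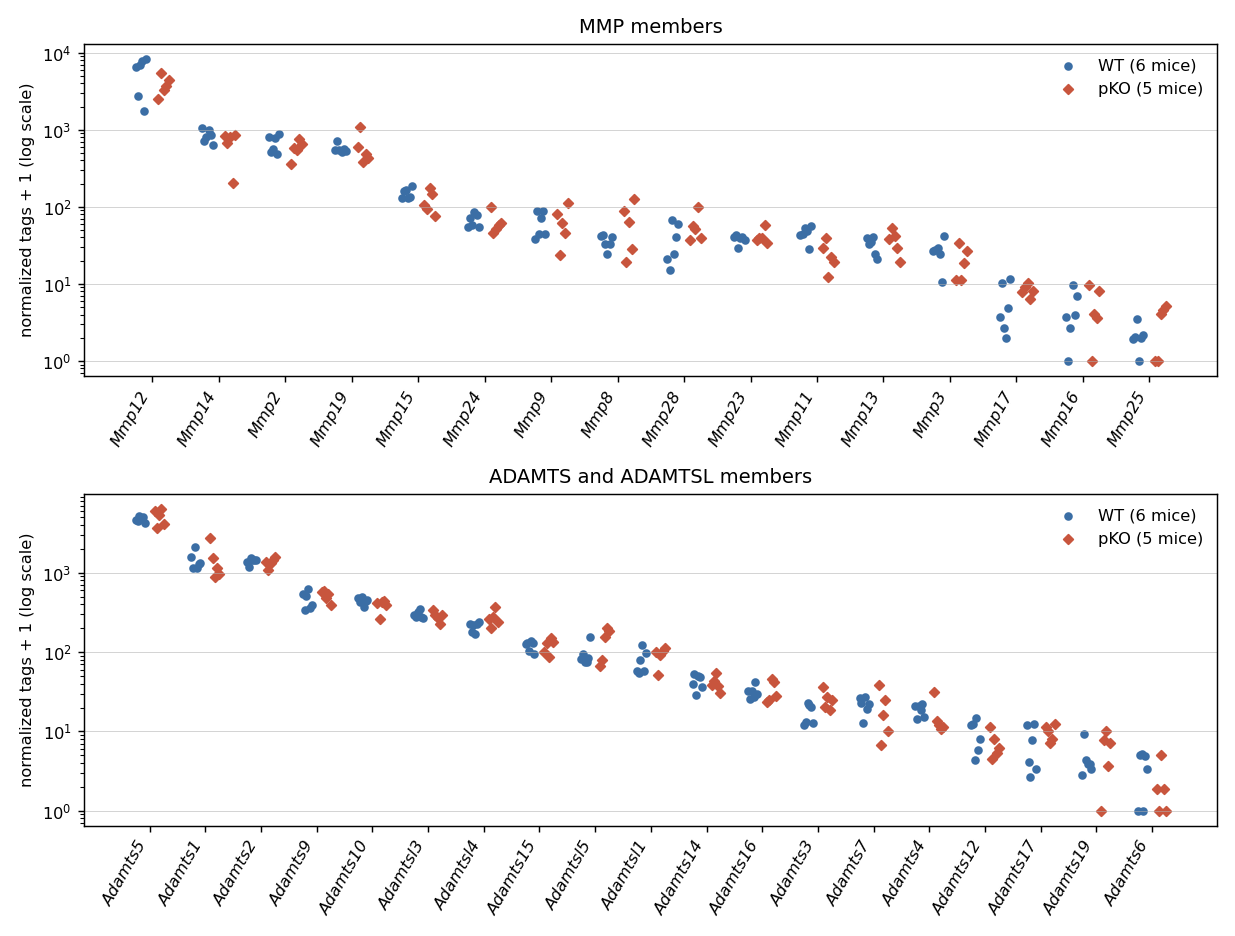
Normalized tags plus 1 on a log scale for the 16 MMP members (upper plot) and the 19 ADAMTS and ADAMTSL members (lower plot), ordered by mean, with 1 blue circle per WT mouse and 1 red diamond per pKO mouse. Mmp12 and Adamts5 lead their families, and the genotypes overlap in every gene shown.

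Between genotypes, limma called 5 of the 15453 genes at an adjusted p of at most 0.1, which is 0.0324%, and none of the 39 members was among them. Adjusted p-values of the members ran from 0.268 to 0.984. edgeR called 0 members as well, and DESeq2, which called 138 of all genes against 5 in limma, called 1, Timp4, at an adjusted p of 0.0287. The study, with other tests, called more genes than limma from these libraries at the same threshold, and its list held no member. At an unadjusted p of at most 0.05 in limma, 1 member was lower in pKO mice, Mmp11, which is 2.56% of the members against 5.35% of all genes. Members higher in pKO mice at this threshold were Timp4, Timp3 and Adamts3, which is 7.69% of the members against 4.2% of all genes. Both directions together gave 10.3% of the members and 9.55% of all genes, a share of the family near that of the whole table.

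The ranges of the genotypes were apart in 1 member, Timp4, with all pKO mice above all WT mice. Among all genes, 0.569% were apart in that direction and 0.673% in the other, in which no member was. In total 19 members had a higher and 20 a lower mean log2 level in pKO mice. The median log2 difference, pKO minus WT, was -0.022 over the members and -0.0025 over all genes.

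**Figure D2:**
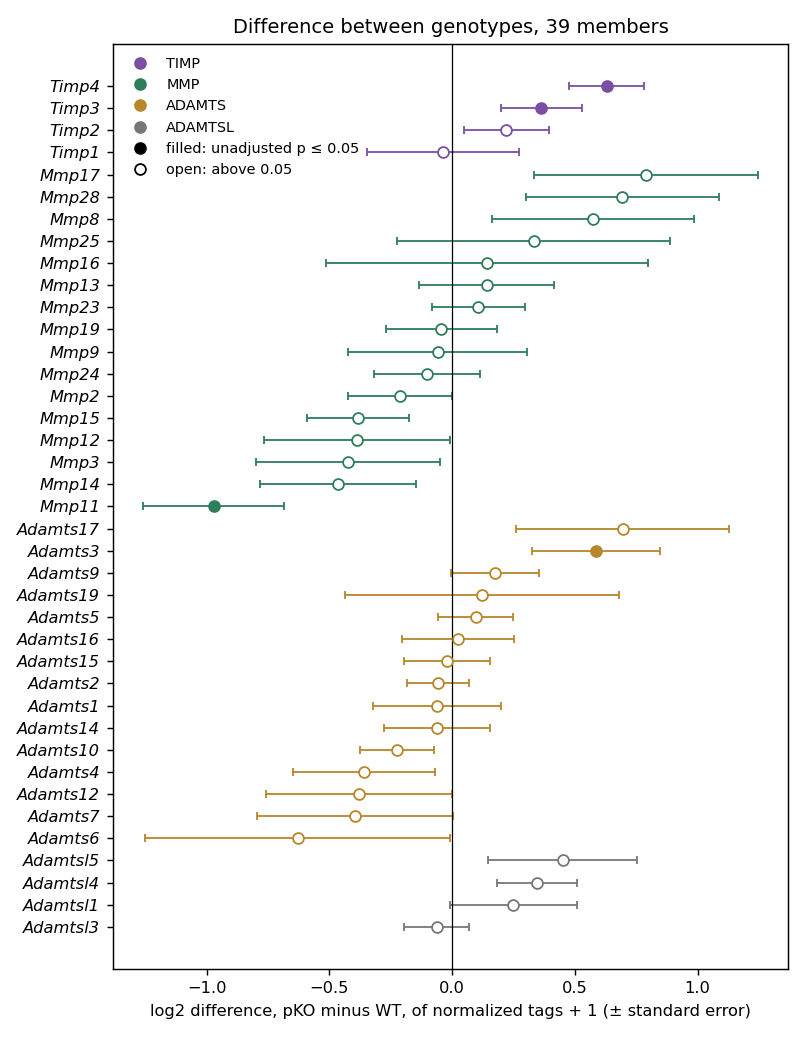
Difference between genotypes for each of the 39 members on the log2(normalized tags + 1) scale, pKO minus WT, with standard errors from limma, coloured by family and sorted within it. Filled points mark the 4 members at an unadjusted p of at most 0.05, and Timp4 has the smallest standard error of these at 0.15.

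Timp4, the inhibitor with the narrowest tissue distribution of its family and a known high level in fat, had the smallest p-value of the members. Its normalized tags in WT mice ran from 319 through a median of 477 to 511, and in pKO mice they were 736, 809, 600, 681 and 599 in replicates 1 to 5. The lowest pKO mouse thus lay above the highest WT mouse. Means were 446 ± 79.7 in WT (SD, n = 6) against 685 ± 90.3 in pKO mice (SD, n = 5), an increase of 53.5%. The log2 difference was 0.63, with a standard error of 0.15 and a 95% interval of 0.30 to 0.96 (limma, unadjusted p = 0.00106, adjusted p = 0.268). The exact two-sided permutation test gave p = 0.0022, the smallest that 6 mice against 5 allow. The unadjusted threshold was met in each of 20 alternative fits, with log2 differences from 0.54 to 0.67.

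Timp3, which is held in the matrix and inhibits ADAM17 and aggrecan-cutting ADAMTS enzymes besides MMPs, was higher in pKO mice at the unadjusted threshold alone. It ran from 1080 through a median of 1579 to 2129 normalized tags in WT mice, and stood at 2132, 1834, 2011, 2083 and 1931 in pKO mice. The pKO values were close together and all above the WT median, while the WT mice were spread 1.97-fold from lowest to highest. Means were 1593 ± 397 in WT (SD, n = 6) against 1998 ± 119 in pKO mice (SD, n = 5). On the log2 scale the difference was 0.36 with a standard error of 0.17 (limma, unadjusted p = 0.0455, adjusted p = 0.517; exact permutation test, p = 0.0628). It met the unadjusted threshold in 8 of 20 alternative fits. Without WT replicate 5, the lowest WT mouse, the log2 difference was 0.26 (unadjusted p = 0.106, limma).

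Timp2 carried most of the TIMP tags, 70.6% ± 1.2 in WT (SD, n = 6) against 67.7% ± 5.9 in pKO mice (SD, n = 5). Its range in WT mice was 3937 to 6170 with a median of 5061, and pKO mice had 5838, 3744, 5814, 6927 and 7261. Here pKO replicate 2 was below every WT mouse, and replicates 4 and 5 were above every WT mouse. The log2 difference of 0.22 had an interval of -0.15 to 0.59 and did not pass the test (adjusted p = 0.719, limma). Without pKO replicate 2 it was 0.38 (unadjusted p = 0.0206, limma), the only 1 of 20 alternative fits in which Timp2 met the unadjusted threshold. That fit also called 106 of all genes at the adjusted threshold, against 5 in the main fit.

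Timp1, the secreted inhibitor that is typically induced in inflamed or injured tissue, had few tags and did not separate the genotypes. It had 27.4 to 84.5 normalized tags in WT mice with a median of 44.6, and 29.2, 56.2, 32.6, 48.5 and 75.7 in pKO mice. Its log2 difference was -0.037, with an interval of -0.70 to 0.63. At 0.704% of the TIMP tags in WT mice and 0.571% in pKO mice, it had the smallest share of the TIMPs.

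**Figure D3:**
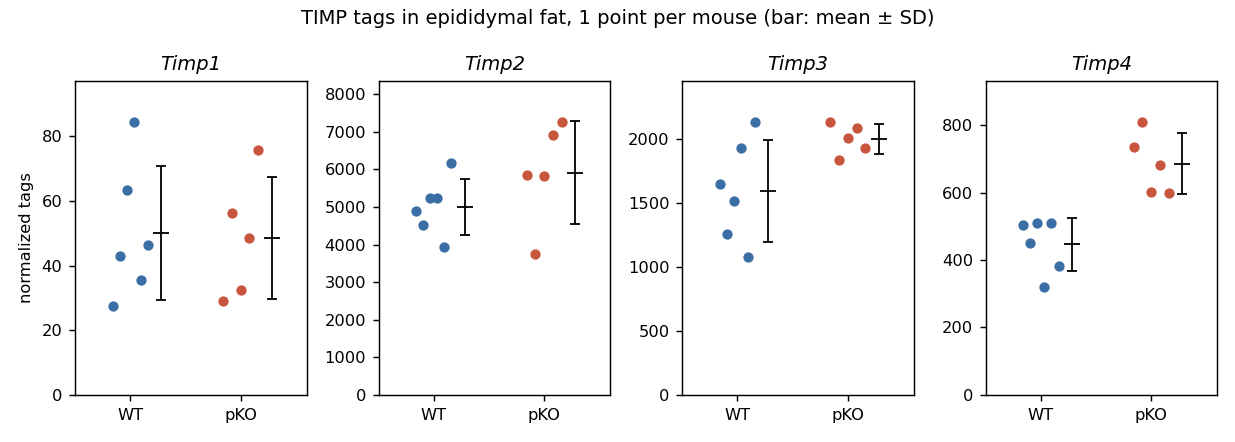
Normalized tags of Timp1 to Timp4, 1 point per mouse (6 WT in blue, 5 pKO in red), with the mean and SD of each genotype as a black bar and each vertical axis starting at 0. The Timp4 ranges are apart, at most 511 in WT and at least 599 in pKO mice, and the other TIMP ranges overlap.

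Mmp12 varied widely between WT mice. Its normalized tags were 6453, 2754, 6841, 7875, 1734 and 8245 in WT replicates 1 to 6, and 2525, 5391, 3252, 3737 and 4421 in pKO replicates 1 to 5. The WT mice fell into 4 high values and 2 low ones, replicates 2 and 5, and every pKO mouse lay inside the WT range. The coefficient of variation in WT mice was 48.4%, above that of 97.5% of the 9906 genes with a mean of at least 50, whose median was 15.5%. In pKO mice it was 28.4%, above that of 65.0% of the same genes, whose median was 23.2%. Means were 5650 ± 2738 in WT (SD, n = 6) against 3865 ± 1098 in pKO mice (SD, n = 5). This gave a log2 difference of -0.39 with an interval of -1.20 to 0.43 (adjusted p = 0.780, limma; exact permutation test, p = 0.407). Without WT replicate 5 it was -0.69 (unadjusted p = 0.0357, limma), and without WT replicate 6 it was -0.24. The fit without WT replicate 5 was the only 1 of 20 alternative fits in which Mmp12 met the unadjusted threshold.

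Since Mmp12 is made chiefly by macrophages, its level was set against the score of 9 macrophage markers, the mean of their log2 levels after centring each gene. Across the 11 mice, Pearson's r was 0.74 (permutation p = 0.0106, adjusted p = 0.106) and Spearman's rho was 0.76 (permutation p = 0.0089, adjusted p = 0.0889), as 1 of 10 pairs of a member and a marker list. Leaving out the 2 mice farthest from the median marker score, pKO replicates 1 and 3, gave r = 0.75. The genotypes were pooled in these correlations, so a difference between genotypes in both values could add to r and rho. Within the 6 WT mice r was 0.91 and rho was 0.43 (exact permutation test, p = 0.0333 and p = 0.419, and 0.333 and 0.599 after adjustment over the 10 pairs). Without the 2 WT mice farthest from the median score r became -0.77, so the relation within WT mice rests on those 2 animals. The other 9 pairs, such as Mmp8 and Mmp9 with neutrophil markers or Timp4 with adipocyte markers, gave permutation p-values for r of 0.207 to 0.886.

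**Figure D4:**
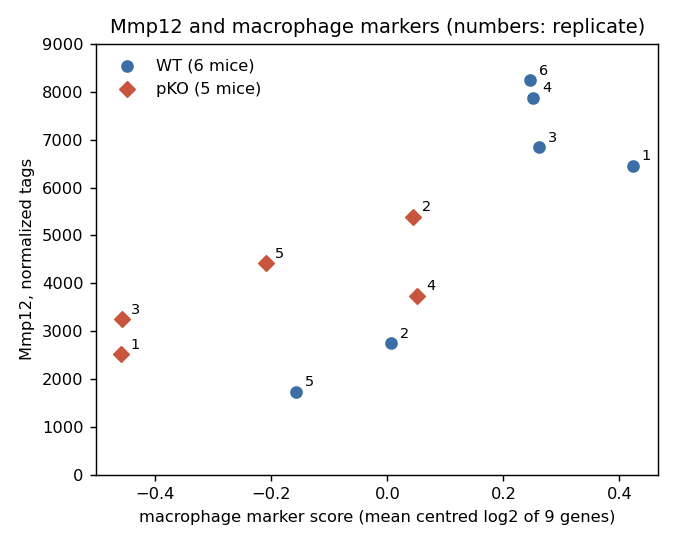
Normalized tags of Mmp12 (vertical axis, from 0) against the macrophage marker score of 9 genes (horizontal axis, mean centred log2), with WT mice as blue circles and pKO mice as red diamonds numbered by replicate. Mice with a higher score tend to have more Mmp12 tags (r = 0.74 over 11 mice, genotypes pooled), and WT replicates 2 and 5 are the low WT mice.

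The gelatinases Mmp2 and Mmp9, which cut denatured collagen and basement membrane collagen, were at very different levels. Mmp2, a product of fibroblast-like cells, had 483 to 872 normalized tags in WT mice with a median of 671, and 355, 584, 547, 748 and 660 in pKO mice. Its log2 difference was -0.21 with an interval of -0.67 to 0.24 (adjusted p = 0.782, limma). Mmp9, known mostly from myeloid cells, had 37.5 to 88.0 in WT mice with a median of 56.9, and 79.8, 22.9, 60.03, 44.1 and 109 in pKO mice. The pKO mice thus held both the lowest and the highest Mmp9 value of the 11 animals, and the log2 difference was -0.058 with an interval of -0.84 to 0.73.

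Among membrane-type MMPs, Mmp14 activates proMMP2 and cuts fibrillar collagen at the cell surface. It had 640 to 1053 normalized tags in WT mice with a median of 827, and 828, 668, 815, 205 and 842 in pKO mice. pKO replicate 4 stood far below the other 10 mice. Its log2 difference was -0.46 with a standard error of 0.32 (adjusted p = 0.667, limma), and without that mouse it was -0.077. Mmp15, the other membrane-type member above 100 normalized tags, had means of 150 ± 23.2 in WT (SD, n = 6) against 119 ± 39.8 in pKO mice (SD, n = 5), with a log2 difference of -0.38 (adjusted p = 0.579, limma) and the tag uncertainty given above. Mmp24 stood at 65.9 in WT mice and 62.8 in pKO mice, and Mmp17, Mmp16 and Mmp25 were at no more than 10.7 in any mouse.

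The collagenases of the data were Mmp8, the neutrophil collagenase, and Mmp13, the main interstitial collagenase of mice. Mmp8 had 23.3 to 41.9 normalized tags in WT mice with a median of 35.5, and 88.4, 18.3, 62.1, 27.4 and 124 in pKO mice. In pKO mice 3 values were above every WT mouse and 1 was below every WT mouse, and the SD was 43.6 against 7.06 in WT. On the log2 scale Mmp8 differed by 0.57 with an interval of -0.31 to 1.46 (adjusted p = 0.682, limma), and without pKO replicate 2 it was 0.93 (unadjusted p = 0.02, limma). edgeR and DESeq2 put Mmp8 at 0.88 and 0.89 with unadjusted p-values of 0.0432 and 0.0314. Mmp8 met the unadjusted threshold in these 3 of 20 alternative fits only. Mmp13 had 20.2 to 39.8 in WT mice with a median of 32.6, and 36.9, 52.7, 40.7, 28.2 and 18.4 in pKO mice, a log2 difference of 0.14 with an interval of -0.45 to 0.73.

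Of the stromelysins, Mmp11 was the only member lower in pKO mice at the unadjusted threshold. Mmp11 is a secreted MMP that furin activates inside the cell and that stromal fibroblasts and immature adipocytes are known to make. It ran from 27.02 through a median of 45.3 to 54.6 normalized tags in WT mice, and stood at 28.3, 37.8, 11.2, 21.2 and 18.4 in pKO mice. In pKO mice 3 values were below every WT mouse, while replicates 1 and 2 lay above WT replicate 5, the lowest WT mouse. Means were 44.5 ± 9.93 in WT (SD, n = 6) against 23.4 ± 10.1 in pKO mice (SD, n = 5). The log2 difference was -0.97, with a standard error of 0.29 and an interval of -1.59 to -0.35 (limma, unadjusted p = 0.00461, adjusted p = 0.370; exact permutation test, p = 0.013). Mmp11 met the unadjusted threshold in each of the 19 alternative fits that tested it, with log2 differences from -1.16 to -0.74, and the filter on a mean of at least 50 normalized tags left it out. Mmp3, stromelysin-1, had 9.65 to 40.4 in WT mice with a median of 26.1, and 10.3, 33.2, 10.2, 17.7 and 25.6 in pKO mice, a log2 difference of -0.42 with an interval of -1.23 to 0.38.

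The remaining MMPs did not pass the test. Mmp19 stood at 570 ± 73.6 in WT (SD, n = 6) against 593 ± 288 in pKO mice (SD, n = 5), where replicate 2 had 1090 and the other pKO mice 379 to 587. Mmp28, also called epilysin, had means of 37.1 and 55.8 and a log2 difference of 0.69 with an interval of -0.15 to 1.54. Mmp23 stood at 37.1 in WT and 40.5 in pKO mice.

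Of the ADAMTS proteases that cut large proteoglycans, Adamts5 held 54.1% ± 2.5 of all ADAMTS tags in WT (SD, n = 6) against 56.0% ± 5.6 in pKO mice (SD, n = 5). Adamts5 ran from 4183 through a median of 4668 to 5163 normalized tags in WT mice, and stood at 5995, 3664, 5396, 6370 and 4136 in pKO mice. The WT mice were tight, whereas 3 pKO mice lay above and 2 below the whole WT range. Its log2 difference of 0.095 had an interval of -0.23 to 0.42 (adjusted p = 0.877, limma).

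Adamts1, which cuts versican, was more spread in pKO than in WT mice. It had 1133 to 2097 normalized tags in WT mice with a median of 1288, and 2702, 1549, 892, 1156 and 974 in pKO mice. Replicate 1 was above and replicates 3 and 5 were below every WT mouse, so the pKO range enclosed the WT range. The log2 difference was -0.062 in limma, 0.022 in edgeR and 0.029 in DESeq2, and -0.32 in limma without pKO replicate 1, so no direction could be given.

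Adamts9 had 336 to 621 normalized tags in WT mice with a median of 447, and 573, 579, 472, 542 and 387 in pKO mice. Its log2 difference was 0.18 with an interval of -0.21 to 0.56. Adamts4, known as aggrecanase-1, had 13.3 to 21.2 in WT mice with a median of 18.8, and 30.0, 12.6, 11.2, 9.71 and 10.2 in pKO mice. All pKO mice other than replicate 1 were below the whole WT range, and without that mouse the log2 difference went from -0.36 to -0.64 (unadjusted p = 0.0147, limma). This was the only 1 of 19 alternative fits in which Adamts4 met the unadjusted threshold. Adamts15 had the same mean to within 1 normalized tag, 119 in WT and 118 in pKO mice.

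The procollagen N-proteinases Adamts2, Adamts3 and Adamts14 remove the amino-terminal propeptide of fibrillar procollagens. Adamts2 was by far the most abundant, at 1410 ± 127 in WT (SD, n = 6) against 1361 ± 192 in pKO mice (SD, n = 5). Adamts3 ran from 10.96 through a median of 15.8 to 21.7 normalized tags in WT mice, and stood at 35.2, 19.5, 26.5, 17.7 and 23.5 in pKO mice. In pKO mice 3 values lay above every WT mouse, and the other two lay inside the WT range. The log2 difference was 0.59 with a standard error of 0.26 (limma, unadjusted p = 0.0416, adjusted p = 0.509; exact permutation test, p = 0.0498). Adamts3 met the unadjusted threshold in 10 of 19 alternative fits and rests on 10 to 41 tags a library. Adamts14 stood at 41.8 in WT and 39.8 in pKO mice.

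Adamts7 and Adamts12, which cut cartilage oligomeric matrix protein, averaged 20.8 and 8.52 normalized tags in WT mice and 18.4 and 6.08 in pKO mice. In the group around Adamts10, an ADAMTS linked to fibrillin microfibrils, Adamts10 itself had 443 ± 47.2 in WT (SD, n = 6) against 383 ± 71.4 in pKO mice (SD, n = 5), a log2 difference of -0.23 with an interval of -0.55 to 0.10. Adamts16 stood at 30.3 and 31.7. The other members of that group, Adamts6, Adamts17 and Adamts19, were among the 7 with means under 10.

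The ADAMTSL genes code for matrix proteins without protease activity, several of them bound to fibrillin. Adamtsl4 had 168 to 241 normalized tags in WT mice with a median of 220, and 259, 203, 275, 365 and 242 in pKO mice. All pKO mice but replicate 2 were above the whole WT range. Means were 209 ± 28.9 in WT (SD, n = 6) against 269 ± 59.96 in pKO mice (SD, n = 5), and the log2 difference was 0.34 with an interval of -0.01 to 0.69 (limma, unadjusted p = 0.0536, adjusted p = 0.529; exact permutation test, p = 0.0498). It met the unadjusted threshold in 5 of 20 alternative fits. Adamtsl3 had 266 to 349 in WT mice with a median of 282, and 338, 289, 271, 227 and 293 in pKO mice, a log2 difference of -0.063. Adamtsl5 averaged 93.2 in WT mice and 136 in pKO mice, and Adamtsl1 at 76.8 and 90.4, and neither passed the test.

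Summed over members, the whole family gave 24687 ± 4074 normalized tags in WT (SD, n = 6) against 24722 ± 1628 in pKO mice (SD, n = 5). The MMP sum was 8228 ± 2854 and 6206 ± 1307 in the same order, and without Mmp12 it was 2578 ± 188 and 2341 ± 292. Mmp12 made up 64.7% of the MMP tags in WT and 61.5% in pKO mice, and the SD of the MMP sum in WT mice was 2854 with it and 188 without it. The TIMP sum was 7090 ± 1092 and 8648 ± 1377, the ADAMTS sum 8694 ± 778 and 9089 ± 1676, and the ADAMTSL sum 674 ± 55.9 and 778 ± 101. The ratio of TIMP to MMP tags ran from 0.712 to 1.35 in WT mice and from 0.792 to 1.81 in pKO mice, with means of 0.937 and 1.46. These sums describe the members and were not tested.

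**Figure D5:**
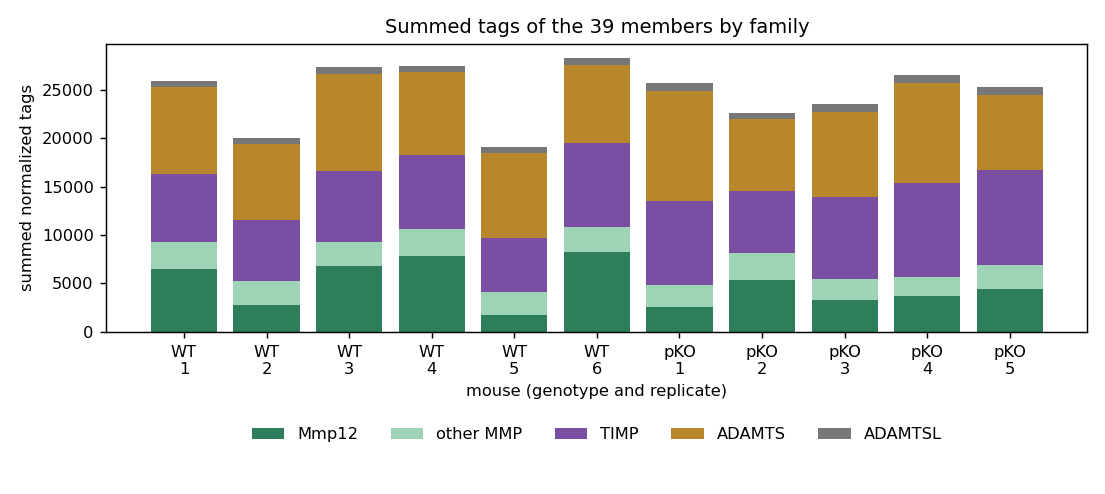
Summed normalized tags of the 39 members in each mouse, stacked by family with Mmp12 apart from the other MMPs, for 6 WT and 5 pKO mice. The totals run from 19085 to 28314 in WT mice, where replicates 2 and 5 are lowest along with their Mmp12 block, and from 22575 to 26552 in pKO mice.

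Genes that act around these proteases were counted by list in the same limma fit, and none of them passed the adjusted threshold. The unadjusted threshold, used for every count below, was met by 5.35% of all genes in the lower and 4.2% in the higher direction. Of 11 measured activators, among them furin, plasminogen activators and procollagen C-proteinase genes, none passed the unadjusted threshold in either direction. Of 11 other inhibitors and clearance receptors, 2 were lower and 0 higher. Tfpi2, a Kunitz-type inhibitor of plasmin, stood at 428 ± 70.9 in WT (SD, n = 6) against 261 ± 74.3 in pKO mice (SD, n = 5), a log2 difference of -0.75 (adjusted p = 0.302, limma). Mrc2, the uptake receptor for collagen fragments, stood at 326 ± 62.8 and 169 ± 48.3, a log2 difference of -0.98 (adjusted p = 0.200, limma). The ranges of the genotypes were apart in both genes, as in 0.673% of all genes in that direction. The study called Mrc2 at its adjusted threshold from these same mice. By qRT-PCR, it also reported Mrc2 as lower in pKO mice in epididymal and inguinal fat of its larger cohort, which includes these mice.

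Of 12 measured ADAM proteases and matrix-degrading cathepsins, 2 were lower and 0 higher at the unadjusted threshold. Ctsb had a log2 difference of -0.45 and Ctss, a cathepsin of myeloid cells, one of -0.57 (adjusted p = 0.430 and 0.370, limma). Among 12 proteoglycan and glycoprotein substrates, Hspg2, which codes for perlecan, was lower at -0.45, and Dcn, which codes for decorin, was higher at 0.37. Among 12 collagen genes, Col5a2 was lower at -0.52. Median log2 differences of the 5 lists ran from -0.16 to -0.020, beside -0.0025 over all genes.

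Cell type markers were counted in the same way, and none passed the adjusted threshold, with a smallest adjusted p of 0.253 (Krt19, limma). Of 9 measured macrophage markers, 3 were lower at the unadjusted threshold, Itgam, Itgax and Cd14, and 0 higher. On the log2 scale 8 of the 9 were below 0, among them Emr1 at only -0.013, and 1, Cd163, was above at 0.23. The median was -0.31. Their summed levels were 3905 to 5930 normalized tags in WT mice and 3634 to 4805 in pKO mice. The pan-macrophage marker Emr1 averaged 856 in WT mice and 865 in pKO mice, with medians of 897 and 788. Among pKO mice, replicate 5 had 1333 and the others 631 to 821, all below the WT mean. The study also reported no difference between genotypes in Emr1, Cd163 and Cd68. Of 6 mesothelial markers, 3 were higher at the threshold, Msln, Upk1b and Krt19, and 0 lower, and all 6 were above 0 on the log2 scale. Their sums were 1158 to 1589 in WT mice and 1387 to 2683 in pKO mice. Fibroblast markers were split, with 4 of 8 above and 4 below 0 on the log2 scale, and Dpp4 alone passed the unadjusted threshold at 0.53 while Pi16 stood at -0.58 and Pdgfrb at -0.45. Endothelial markers were split into 3 and 3, with Kdr past the threshold at 0.44 and Pecam1 at -0.39. Of 4 smooth muscle markers 1, Cnn1, was lower and 0 were higher at the threshold. The 4 measured neutrophil markers were also split, with S100a9 past the threshold at 0.69, S100a8 at -0.57, Csf3r at -0.20 and Elane at 0.019. Of 2 measured erythrocyte markers, Hba-a1 was higher at the threshold. None of 8 adipocyte, 7 lymphocyte and 2 epididymis markers passed the threshold. Neutrophil sums were 56.9 to 112 in WT mice and 56.0 to 91.1 in pKO mice. The part of these cell types in the levels of Timp4, Timp3, Mmp11 and the other members was not tested beyond the 10 pairs above.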

How the data were processed

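The authors digested cDNA with NlaIII, sequenced the SAGE tags on a SOLiD system, assigned them to genes with a modified version of the instrument's SAGE software and deposited 1 value per gene and mouse. The submitters' processing notes name edgeR 3.2.3 and mm10, and the annotation, and any filter behind the list of 15453 genes, are not given in the sources used here. The deposited values are a signal, tag counts divided by a size factor. In every library 100% of values were whole multiples of the value of 1 tag (tolerance 0.1 tag), so tag counts could be recovered.

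From the deposited values, log2(value + 1) was fitted between genotypes with limma 3.58.1 (R 4.3.3) over all 15453 genes, with a mean-variance trend, no filter and Benjamini-Hochberg adjustment. Log2 differences are pKO minus WT and understate the change of genes with few tags. A pseudocount of 1 was used, and 95% intervals come from the moderated fit. Single genes were also tested over all 462 splits of the mice (exact, two-sided), and correlations over 100000 permutations. Alternatives were total-count and TMM scaling, edgeR 4.0.16 and DESeq2 1.42.0 on recovered tags, pseudocounts of 0.5 and 10, a mean of at least 50, no trend, a replicate block and leaving out each mouse. The fits were tested on simulated data with a common dispersion between mice for all genes. Changes were simulated only in genes averaging at least 50 normalized tags, so members under that level, such as Mmp11 and Adamts3, were not covered.

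Members described mouse by mouse were those at an unadjusted p of at most 0.05, the 2 most abundant of each family, and a list chosen by role. Of genes around the proteases, those at that threshold were named. Adipoq, Emr1 and the cell type markers named singly are outside this rule and were chosen after their values were seen. The members and lists were chosen with earlier results of these data known. The labels mark each library as a separate sample, and every pair of libraries differed by more than sampling noise (chi-square per degree of freedom at least 17.7). No batch is named.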

Additional observations from a re-analysis of the deposited data

Results flagged for a closer look

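Of 86 groups of values (39 members and 4 sums in each genotype), 8 held a mouse farther from the rest than Dixon's 95% critical value allows, where chance gives 4.3. Mmp14 in pKO replicate 4 was 205 normalized tags, with the other pKO mice at 668 to 842, and Mmp23 in the same mouse was 57.4 against 32.7 to 38.7. Mmp19 in WT replicate 2 was 716 against 521 to 566, and Adamts19 in that mouse was 8.18 against 1.83 to 3.34. Adamts4 in pKO replicate 1 was 30.0 against 9.71 to 12.6, and Adamts10 in pKO replicate 2 was 259 against 386 to 433. Adamtsl5 in WT replicate 6 was 154 against 73.6 to 94.1. Adamts6 in pKO replicate 3 was 4.07 against 0 to 0.883, which is within a few tags of none. No mouse carried more than 2 of these values.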

How the results depend on the processing

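Over 20 alternatives, the number of members at an adjusted p of at most 0.1 stayed at 0 except with DESeq2, which gave 1 (Timp4) and called 138 genes in all against 5. Members lower in pKO mice at the unadjusted threshold were 1, but 0 when genes averaging under 50 in both genotypes were dropped, since Mmp11 is under it, and 1 to 2 with a mouse left out (2 without WT replicate 5 or pKO replicates 1, 3 or 4). Members higher were 3, but 1 with total-count scaling, 2 without the trend, 4 in edgeR and 1 to 6 with a mouse left out (1 without WT replicate 1 or pKO replicates 3 or 5, 5 without WT replicate 6 and 6 without pKO replicate 2). Genes called in the whole table moved to 106 without pKO replicate 2, 14 without WT replicate 5, 11 without the trend, 9 with the mean filter and 1 with the replicate block. The cause of these changes was not tested. The median over the members ran from -0.056 to 0.071 and so had no stable sign. Among the 19 members described mouse by mouse, directions turned in 5, all with log2 differences of at most 0.14 in size. Adamts1 was -0.062, and 0.022 in edgeR, 0.029 in DESeq2 and -0.32 to 0.083 with a mouse left out. Mmp9 was -0.058, 0.041 in edgeR and 0.041 in DESeq2, and -0.30 to 0.25. With a mouse left out, Timp1 ran from -0.22 to 0.13, Mmp13 from -0.020 to 0.35 and Adamtsl3 from -0.13 to 0.014.

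Mice with the same replicate number did not deviate together (mean correlation -0.024 over 5 pairs, 0.0046 for different numbers). Under a replicate block without the unpartnered WT replicate 6, 0 members passed the adjusted threshold, 1 was lower and 3 were higher. For members under 50 normalized tags, tag counting adds to the spread between mice.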
